A study of Arabidopsis thaliana with 8 samples.

Results

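The response of whole *Arabidopsis thaliana* seedlings to 90 minutes of heat was described across all genes that the arrays measured. The comparison rested on 4 of the 8 arrays of the series, the 2 labelled heat-treated and the 2 labelled control. All seedlings were of the ecotype Columbia 0, were 4 days old and had germinated in the dark at 23 °C in half-strength Murashige-Skoog liquid with 30 mM sucrose, after 2 days in the cold at 4 °C. Control seedlings stayed at 23 °C, and heated seedlings spent 90 minutes at 38 °C, also in darkness. Each group held 2 biological replicates, with 1 Affymetrix ATH1 array per replicate, and this small number of arrays sets the precision of all values given. The whole seedling was extracted, and the values therefore average over root, hypocotyl and cotyledon.

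Plant cells meet heat by releasing heat shock transcription factors from chaperones, and these factors then switch on genes of protein folding. Small heat shock proteins hold unfolding proteins, HSP70 machines with their J-domain partners refold them, and HSP90 works with co-chaperones on client proteins. A dark-grown seedling lives on reserves and sugar while its hypocotyl and root elongate, a process that needs enzymes which loosen and rebuild the cell wall.

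Of 22746 probe sets other than array controls, 14535 were tested because 2 or more of the 8 arrays gave them a log2 intensity of 4 or higher. Between 58.7% and 60.6% of probe sets reached that level in each of the 4 arrays, and the correlation across probe sets was 0.968 between control arrays and 0.979 between heat arrays. Control arrays differed over 2-fold at 6.58% of tested probe sets and heat arrays at 5.52%. The array's 25S ribosomal RNA probe set read 2.79 and 6.20 on the log2 scale in the control arrays and 5.81 and 6.58 in the heat arrays, and its part in the results was not tested. As a sign of RNA integrity, the actin 3′ probe set stood 1.07 and 1.37 log2 units above its 5′ partner in the control arrays and 0.89 and 0.93 above it in the heat arrays. PORB, a protochlorophyllide reductase, read 13.87 and 13.95 in control and 13.36 and 13.35 in heat. The 13 measured nuclear-encoded photosynthesis genes were bright although the seedlings were kept in darkness. Their median was 12.22 and 11.61 in the control arrays and 12.19 and 11.99 in the heat arrays. All 4 of 4 measured root hair genes were above background in at least 1 control array.

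Heat moved a large share of the transcriptome, with more probe sets falling than rising. Calls of higher or lower were made where limma's Benjamini-Hochberg adjusted p over all 14535 probe sets was below 0.05 and the change reached 2-fold. With 2 arrays per group, a probe set that was not called is not shown to be unchanged. By that rule 1524 probe sets (10.5%) were higher in heat and 2605 (17.9%) were lower, 1.71 falling for each that rose. Among the 7823 tested probe sets that match 1 gene, from which all lists below are drawn, the shares were 10.7% higher and 17.1% lower. Some of these lists, named with the processing below, were added after values were seen. Their counts are descriptions only. The median of all probe sets was -0.22 on the log2 scale, and 61.6% of probe sets had a value below 0, so changes are best read relative to that median. With each array centred on its median the counts were 1736 higher and 2284 lower, and after quantile normalization they were 1779 and 2231.

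Rises were the larger changes and falls the more numerous. Among probe sets called higher the median log2 fold change was 2.15, and 321 of them (21.1%) changed by at least 4. Among those called lower the median was -1.71, and 54 (2.07%) fell by at least 4. The extremes were 12.75 and -6.22. At 6 or more log2 units, 132 probe sets were higher and 2 lower.

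**Figure D1:**
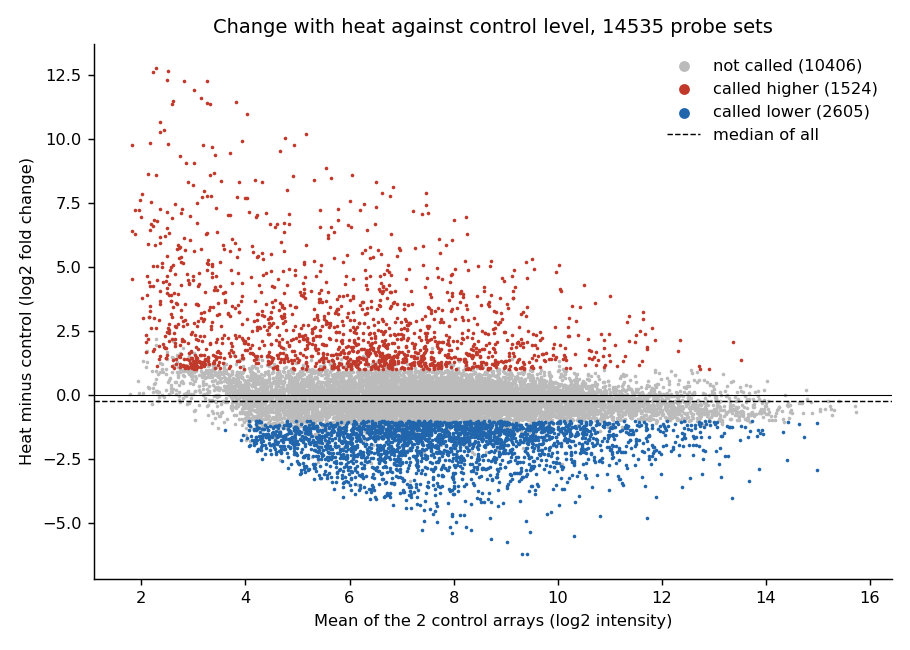
Log2 fold change, heat minus control, against the mean log2 intensity of the 2 control arrays, 1 point per tested probe set (14535), with called probe sets coloured and the median of all (-0.22) dashed. Rises of 8 or more start from control levels below 8, while falls stay within -6.22 and are spread over nearly the whole range of control levels; the control mean enters both axes.

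Calls were also counted in classes of the control intensity, which sort probe sets by brightness on the array and not by amount of RNA. The control mean enters both the class and the change, so that part of any decline in the share called higher is built into this count. At control means of 4 to 6, 12.7% of probe sets were called higher and 18.0% lower. At 8 to 10 the shares were 5.79% and 19.4%, and at 12 to 14 they were 1.37% and 17.8%. The share called higher thus became smaller in each brighter class, while the share called lower stayed between 17.8% and 20.2% up to a control mean of 14. None of the 56 probe sets at 14 or more was called higher and 7 were called lower, by limma. Probe sets with a control mean below 4 had to be brighter in other arrays to be tested at all, so that their 44.6% called higher carries no weight.

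**Figure D2:**
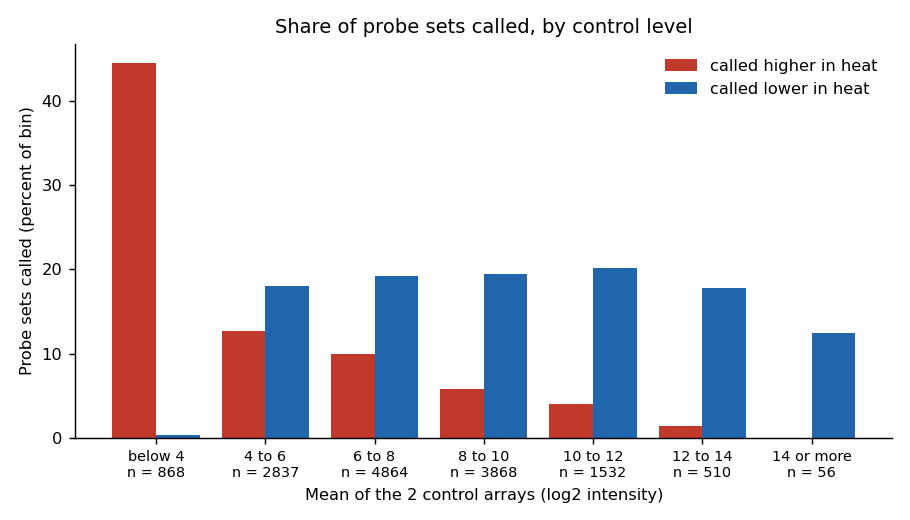
Percent of tested probe sets called higher (red) or lower (blue) in heat, in classes of the mean of the 2 control arrays on the log2 scale, with the number of probe sets under each class. The share called higher becomes smaller from 12.7% at 4 to 6 to 1.37% at 12 to 14, whereas the share called lower stays near 18% to 20%; the class below 4 is set by the filter, and the control mean enters both the class and the change.

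Some transcripts passed from background to the upper end of the scale. Of the 698 tested probe sets below log2 4 in both control arrays, 349 were called higher. In heat 229 of these averaged 4 to 8, 72 averaged 8 to 12 and 25 were above 12. In the opposite direction, 494 of the 866 tested probe sets below 4 in both heat arrays were called lower. Of these, 483 came from control means of 4 to 8, 8 from 8 to 12 and 0 from above 12. Probe sets dim in 1 group had to be brighter in other arrays to be tested, so that these shares carry no weight. At a log2 level of 14 or more there were 56 probe sets in control and 83 in heat. Of those 83 in heat, 56 had been called higher, and 30 of these 56 came from control means below 8. For a transcript at background in 1 group, only a lower bound of the change is known, taken here against a log2 level of 4.

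Chaperones were among the largest rises. Of 10 measured small heat shock proteins 8 rose, of 11 HSP70, HSP90 and HSP100 chaperones and co-chaperones 8 rose, and of 12 J-domain proteins 7 rose, against 10.5% of all probe sets. Their median log2 fold changes were 8.01, 4.08 and 1.43, and 2 of the 10 small heat shock proteins were at background in both control arrays. The small heat shock protein list read 6.62 and 5.90 in the control arrays and 14.51 and 14.76 in the heat arrays, as the median over members. The rise was not shared by every family member: Hop1, an organiser that links HSP70 to HSP90, was at 8.47 and 8.98 in control and 8.64 and 8.76 in heat. Hop3, its relative, went from 4.15 and 5.17 to 14.02 and 14.34, a change of 9.52 ± 0.53 log2 units (SE; adjusted p = 1.04e-05). Fes1A, a nucleotide exchange factor of HSP70, rose by 7.44, whereas Fes1B and Fes1C stood at 0.80 and 0.81 and were not called. AT3G09440, a cytosolic HSP70 already bright in control at 10.71 and 11.28, reached 14.79 and 14.90 in heat.

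J-domain proteins, which deliver clients to HSP70, ran from background to very bright. AT1G71000 read 2.41 and 2.83 in control and 14.12 and 14.05 in heat, at least 1087-fold higher (adjusted p = 2.33e-07). AT2G20560 rose by 8.48 and AT3G14200 by 5.67. ATERDJ3B, a J-domain protein of the endoplasmic reticulum, rose by 1.60, while its membrane-bound relatives ATERDJ2A and ATERDJ2B stood at -0.51 and 0.29 and were not called.

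Folding helpers of other compartments responded in part. Of 9 measured genes of the unfolded protein response and folding in the endoplasmic reticulum 3 rose and 0 fell, with a median of 0.55. Called higher were 33.3%, against 10.5% of all probe sets. BZIP28, a membrane-held transcription factor of that response, read 8.36 and 8.37 in control and 10.90 and 10.68 in heat, a change of 2.42 ± 0.27 log2 units (SE; adjusted p = 0.000358). BZIP60, the factor activated by splicing of its RNA, stood at 0.19, and the calreticulin CRT1b at 0.55; neither was called. Of 13 chaperonin subunits, which form folding barrels in plastids, mitochondria and the cytosol, 3 rose (23.1%) and 0 fell, with a median of -0.02. Cpn60beta2, a plastid subunit, read 11.91 and 11.72 in control and 14.44 and 14.41 in heat, a change of 2.61 ± 0.41 log2 units (SE; adjusted p = 0.00213).

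Transcripts of the mitochondrial genome were higher in heat, and few of their nuclear-encoded partners were. Of 16 mitochondrial-encoded genes 14 rose and 0 fell, with a median of 6.16, or 5.57 with group means below log2 4 set to 4. The members' median was 3.79 and 4.16 in the control arrays and 10.25 and 11.07 in the heat arrays. cox2, a subunit of cytochrome c oxidase, went from 4.64 and 4.84 to 11.40 and 11.51, and cox1, another subunit, rose by 5.80. nad4, a complex I subunit, was at 8.30 and 9.94 in control and 10.07 and 10.94 in heat, with groups that do not overlap, but was not called. Of these 16 genes, 7 were at background in both control arrays and were tested only because other arrays were brighter. The same held for 12 of 22 measured genes in a nuclear copy of mitochondrial DNA on chromosome 2. All 22 were called higher, with a median of 4.95, or 4.35 with group means below log2 4 set to 4, but for the 12 the filter left little room for another outcome. Transcripts from that copy and from the mitochondrial genome cannot be told apart by these probe sets. The list of the chromosome 2 copy was added after values were seen.

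Among 43 nuclear-encoded genes of respiration 4 rose (9.30%, near the 10.5% of all probe sets) and 0 fell, and the median was -0.17. The 4 that rose were AT5G25450, CYTC-2, NDB2 and SDH2-2. AT5G25450, a small subunit of complex III, read 7.50 and 7.27 in control and 14.46 in both heat arrays, a change of 7.07 ± 0.23 log2 units (SE; adjusted p = 9.83e-07). CYTC-2, 1 of the cytochrome c genes, rose by 3.24 ± 0.23, while CYTC-1 stood at -0.12 and was not called. NDB2, an external alternative NADH dehydrogenase that bypasses complex I, read 7.31 and 7.69 in control and 10.28 and 9.96 in heat. SDH2-2, an iron-sulfur subunit of succinate dehydrogenase, rose by 1.14 and lost its call without control replicate 2 or heat replicate 1.

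Plastid genes did not follow the mitochondrial ones. Of 69 plastid-encoded genes 1 rose and 0 fell, with a median of 0.10; by unadjusted p below 0.05, 4 differed. Their median was 10.45 and 11.10 in the control arrays and 10.95 and 11.73 in the heat arrays, so replicates of 1 group lay further apart than the groups' means. psbA, the D1 protein of photosystem II, was the exception and read 10.38 and 10.40 in control and 12.63 and 12.82 in heat, a change of 2.34 ± 0.38 log2 units (SE; adjusted p = 0.00236). Of 13 nuclear-encoded photosynthesis genes 0 were called by limma, 2 by unadjusted p below 0.05, and the median was 0.16. HEMA2, a glutamyl-tRNA reductase at the head of tetrapyrrole synthesis, rose by 1.72, and it was the single call among 9 chlorophyll synthesis genes.

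Protective proteins of drying and cold rose in part, with 36.4% called higher against 10.5% of all probe sets. Of 11 late embryogenesis abundant proteins and dehydrins 4 rose and 0 fell, with a median of 1.47; 2 were called without heat replicate 1. COR47, an acidic dehydrin, read 12.16 and 11.21 in control and 14.29 and 13.86 in heat, a change of 2.39 ± 0.35 log2 units (SE; adjusted p = 0.0014). AtLEA4-1 went from 8.09 and 6.69 to 10.20 and 10.52. In this list 5 members differed over 2-fold between the control arrays, and the list's median ran from 0.83 to 1.87 when 1 array was left out. AT1G54410, a dehydrin already at 14.65 and 14.79 in control, was at 13.89 and 14.14 in heat and was not called.

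Calcium sensors rose in part. CML37, a calmodulin-like protein, read 2.23 and 2.14 in control and 8.91 and 8.78 in heat, at least 28.7-fold higher (adjusted p = 1.06e-06). CML23 rose by 3.88. CML42, which is also calmodulin-like, went from 5.20 and 6.89 to 3.02 and 3.05, at least 4.13-fold lower (adjusted p = 0.00305). Its control arrays lay over 2-fold apart. Of 6 measured members 3 rose, against 10.5% of all probe sets. The 1 that fell made up 16.7%, near the 17.9% of all probe sets. AT1G76640, also called higher, was at background in both control arrays and at least 4.45-fold higher in heat. Its call was lost at an adjusted p below 0.01 or with no filter on dim probe sets. It was also lost without any 1 of the 4 control and heat arrays.

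Core hypoxia genes, a set known for its induction by lack of oxygen, also split. Of 28 measured members 7 rose (25%, against 10.5% of all probe sets) and 7 fell (25%, against 17.9%), with a median of -0.39. That median ran from -0.76 without control replicate 1 to 0.14 without control replicate 2, so its sign rested on 1 array. The count of falls was 3 without control replicate 2, 2 without heat replicate 2 and 4 with no filter on dim probe sets, and 11 of the 28 differed over 2-fold between control arrays. AT3G10020 read 8.15 and 7.85 in control and 14.80 and 14.83 in heat, and AT3G03270, a universal stress protein, rose by 4.08. PDC2, which makes acetaldehyde from pyruvate in fermentation, rose by 2.00 ± 0.26 (SE; adjusted p = 0.000785). AT5G66985 went from 5.79 and 7.60 to 3.23 and 3.36, at least 6.49-fold lower.

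Further rises came from single genes of lists whose medians lay a little below that of all probe sets. The share called higher was 9.09% for translation factors and tRNA synthetases and 18.8% for sucrose and starch genes, against 10.5% of all probe sets. The share called lower was 0% and 6.25%, against 17.9%. Of 22 translation factors and tRNA synthetases 2 rose and 0 fell, with a median of -0.39; 1 rose without control replicate 1, heat replicate 1 or heat replicate 2. AT5G12110, a subunit of elongation factor eEF1B, read 9.69 and 9.32 in control and 14.82 and 14.81 in heat, a change of 5.31 ± 0.23 log2 units (SE; adjusted p = 3.14e-06). Of 16 sucrose and starch genes 3 rose and 1 fell (2 fell without control replicate 2 or heat replicate 1), with a median of -0.29. AT4G24450, which carries a glucan water dikinase name, rose by 4.63. SWEET1, a sugar transporter of the plasma membrane, rose by 3.62, and SWEET16, a vacuolar one, fell by 1.66. Of 15 genes of chromatin and RNA silencing 1 rose and 1 fell (6.67% each, below the 10.5% and 17.9% of all probe sets). ASF1B, a histone chaperone, rose by 3.50, and AGO7, which loads the small RNA miR390, went from 5.51 and 5.40 to 2.20 and 2.26, at least 2.74-fold lower (adjusted p = 0.00084).

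Genes of the cell wall fell in large part. Of 38 pectin enzymes 28 fell and 1 rose, with a median of -1.90. Of 14 cellulose and hemicellulose genes 10 fell and 0 rose, with a median of -2.02. Of 14 expansins 9 fell and 2 rose, with a median of -2.23, and of 7 xyloglucan-modifying enzymes 5 fell and 0 rose, with a median of -1.50. The share called lower over all probe sets was 17.9%, and the median of all was -0.22. With group means below log2 4 set to 4 the 4 medians were -1.68, -1.47, -1.14 and -1.50.

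**Figure D3:**
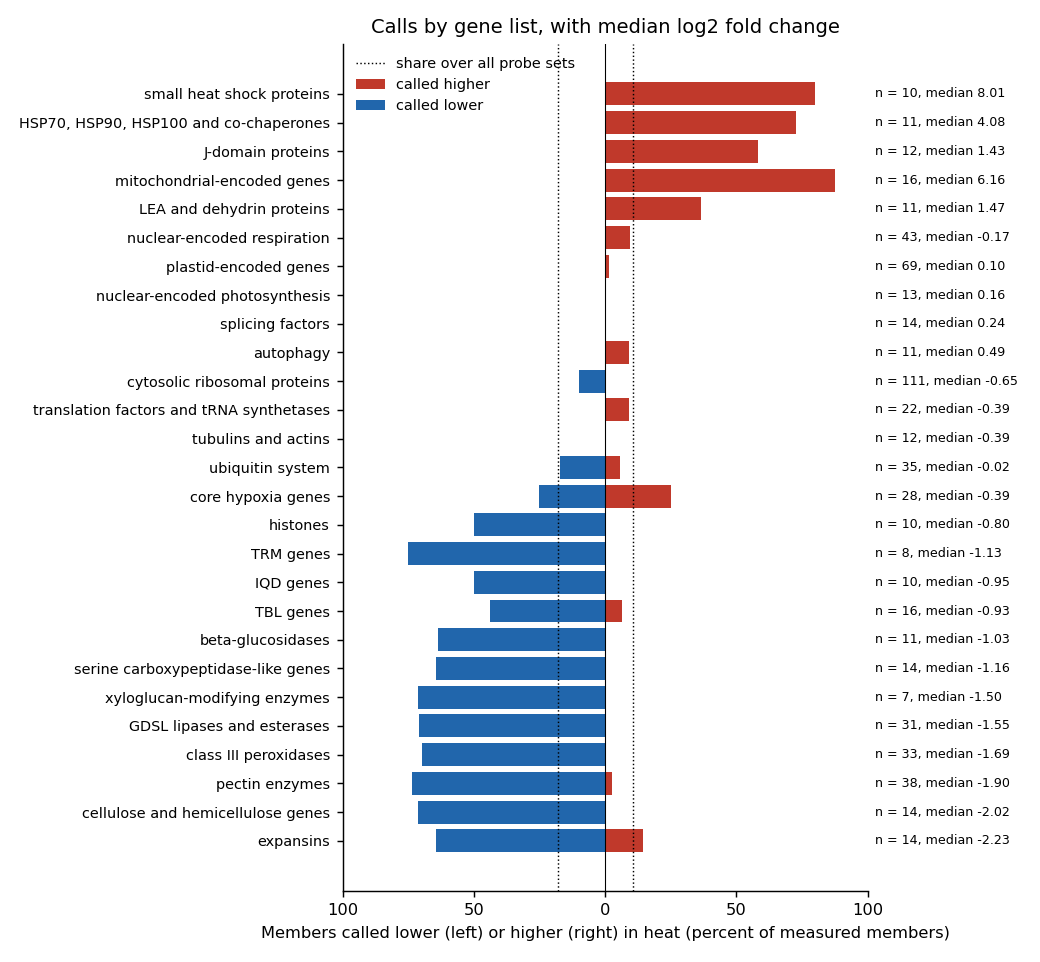
Percent of measured members called higher (red, right) or lower (blue, left) in heat for 27 gene lists, with the number measured and the median log2 fold change at the right; dotted lines mark the shares over all probe sets (10.5% and 17.9%). Chaperone and mitochondrial-encoded lists reach far to the right, wall, peroxidase and esterase lists far to the left. The GDSL, TRM, TBL, IQD, beta-glucosidase and serine carboxypeptidase-like lists were added after values were seen.

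GH9C2, an endoglucanase, read 11.89 in both control arrays and 7.74 and 8.11 in heat, a change of -3.96 ± 0.28 log2 units (SE; adjusted p = 3.79e-05). COB, which orients cellulose deposition, went from 10.98 and 10.92 to 8.79 and 9.03. The 4 measured members of the CSLC family, which makes the xyloglucan backbone, fell: CSLC5 by 3.27, CSLC04 by 2.62, CSLC6 by 2.19, and ATCSLC08, at background in heat, by at least 1.05-fold. XTH33 and XTH32, which cut and rejoin xyloglucan, fell by 2.91 and 2.27. EXPA4, an expansin that loosens walls, went from 11.41 and 11.12 to 7.66 and 7.82.

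Within the expansins the alpha and expansin-like A groups are given here, and the remaining members of the list are not. All 8 measured alpha-expansins fell. EXPA4, EXPA8, EXPA15, EXPA9 and EXPA20 fell by 2.15 to 3.53, and EXPA20 lost its call without control replicate 1 or heat replicate 1. EXPA18, EXPA7 and EXPA16 were at background in both heat arrays and were at least 3.94-fold, 2.21-fold and 2.19-fold lower, the last losing its call without heat replicate 1. EXLA2, of the expansin-like A group, rose by 2.40 from 7.28 and 6.68 in control to 9.88 and 8.88 in heat. EXLA3, at background in control, was called higher by at least 1.16-fold, a call that was lost without control replicate 1, control replicate 2 or heat replicate 1, and EXLA1 stood at 0.06.

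Among the pectin enzymes that fell were a pectate lyase and a pectin methylesterase. AT5G63180, the pectate lyase, read 7.84 and 7.05 in control and 3.26 and 3.38 in heat, at least 10.9-fold lower (adjusted p = 3.71e-05). ATPMEPCRB, the pectin methylesterase, went from 8.27 and 10.68 to 4.08 and 4.15, and its control arrays lay over 2-fold apart. AT4G33440 was the single member that rose, from a mean of 4.89 to one of 8.07. The TBL list, with 43.8% called lower against 17.9% of all probe sets, was added after values were seen. TBL proteins, which acetylate wall polysaccharides, fell in 7 of 16 cases (4 without control replicate 1) and rose in 1, TBL32 at 1.76.

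**Figure D4:**
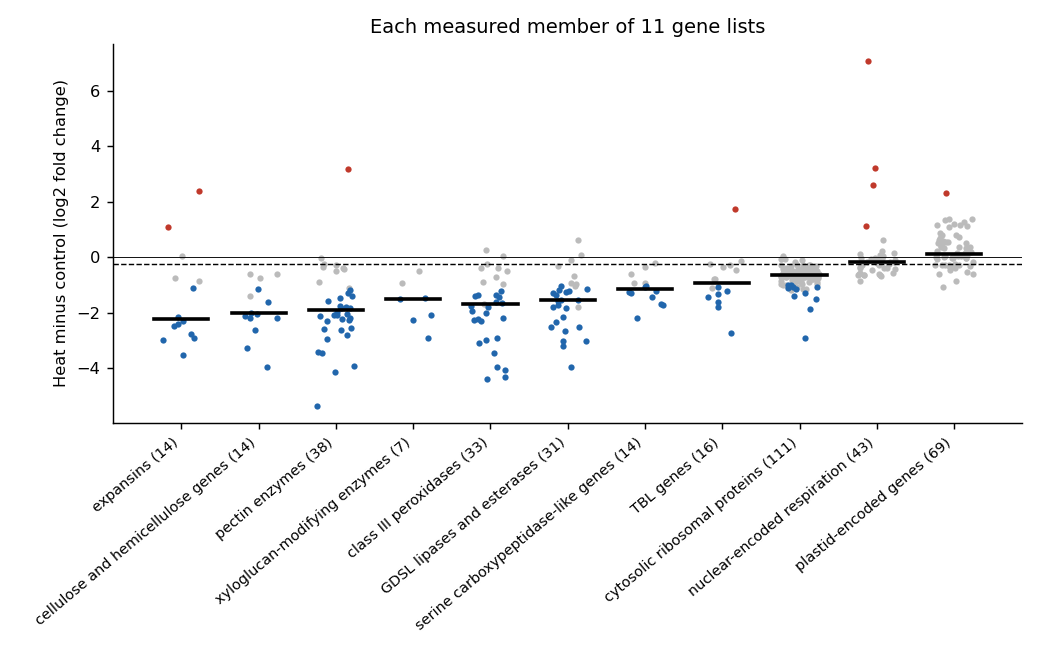
Log2 fold change, heat minus control, of every measured member of 11 gene lists (number of members in brackets), red where called higher, blue where called lower and grey where not called, with the list's median as a bar and the median of all probe sets dashed. Most wall, peroxidase and esterase members lie below -1, while ribosomal proteins form a tight group around -0.65 and plastid genes lie around 0. The GDSL, TBL and serine carboxypeptidase-like lists were added after values were seen.

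Secreted enzymes outside the wall polysaccharides fell as well. Of 33 class III peroxidases, which make or use hydrogen peroxide in the wall, 23 fell and 0 rose, with a median of -1.69. Called lower were 69.7%, against 17.9% of all probe sets. PRXR1 read 14.85 and 14.63 in control and 13.09 in both heat arrays, a change of -1.65 ± 0.22 log2 units (SE; adjusted p = 0.00104). In this list 9 members differed over 2-fold between the control arrays, and the number that fell was 16 without heat replicate 2, 20 without control replicate 1 or heat replicate 1 and 22 without control replicate 2. Of 31 GDSL lipases and esterases, a list added after values were seen, 22 fell and 0 rose, with a median of -1.55. That median ran from -1.64 to -1.45 when 1 array was left out. AT3G16370 read 13.24 and 13.05 in control and 10.03 and 9.88 in heat, and AT1G29670 went from 12.77 and 12.81 to 10.52 and 10.07.

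Of 19 secreted proteases 13 fell (68.4%, against 17.9% of all probe sets) and 0 rose, 14 of the 19 being serine carboxypeptidase-like genes. SBT4.12, a subtilase, read 11.62 and 11.80 in control and 6.76 and 7.04 in heat, a change of -4.81 ± 0.25 log2 units (SE; adjusted p = 8.48e-06). ARA12, a subtilase that acts in seed coat mucilage, fell by 2.44, and SBT3.5 stood at -0.08. The carboxypeptidase-like list, with 64.3% called lower against 17.9% of all probe sets, was added after values were seen. Of the 14 carboxypeptidase-like genes 9 fell, and 5 did so without control replicate 1. AT4G32460, a wall protein of the DUF642 family, read 13.43 and 13.26 in control and 9.04 and 9.60 in heat, a log2 fold change of -4.02.

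All 4 measured root hair genes fell, against 17.9% of all probe sets called lower. They include the expansins EXPA7 and EXPA18 and the peroxidases AT1G30870 and AT3G49960. Of the 4, 3 were at background in both heat arrays and were tested only because other arrays were brighter. For these 3 the filter left little room for another outcome. EXPA7 read 6.20 and 4.09 in control and 2.17 and 2.14 in heat, at least 2.21-fold lower. AT1G30870 read 7.89 and 6.46 in control and 2.66 and 2.91 in heat, at least 9.02-fold lower. Each of the 4 differed over 2-fold between control arrays, control replicate 1 being the higher, and AT3G49960 lost its call without control replicate 1 or heat replicate 1. In whole seedlings fewer cells of a type and less RNA per cell cannot be told apart.

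Histone genes and genes of the cytoskeleton's organisation fell in part, and tubulins and actins were not called. Of 10 histone genes 5 fell (50%, against 17.9% of all probe sets) and 0 rose, with a median of -0.80. HTB2 and HTB11, both of histone H2B, went from 8.10 and 8.49 to 6.26 and 6.07 and from 9.74 and 9.91 to 7.88 and 7.45. HTB4, also H2B, stood at 0.21. Of 6 genes of DNA replication and cell cycle 2 fell (33.3%, against 17.9% of all probe sets) and 0 rose, with a median of -1.06. One was SIM, an inhibitor of cyclin-dependent kinases, which read 10.36 and 9.75 in control and 7.89 and 8.46 in heat. The other, ICU2, fell by 1.09. Its call was lost with median centring, quantile normalization, no filter on dim probe sets or a fit of the control and heat arrays alone. It was also lost without control replicate 1, control replicate 2 or heat replicate 2, and without any 1 array of the other groups. TRM proteins, which recruit a microtubule-organising complex, fell in 6 of 8 cases, with a median of -1.13, and in 3 without heat replicate 2 or with either other scaling. IQD proteins, calmodulin-binding scaffolds at microtubules, fell in 5 of 10 cases. The TRM and IQD lists, with 75% and 50% called lower against 17.9% of all probe sets, were added after values were seen. Of 12 tubulins and actins 0 were called by limma and 3 had an unadjusted p below 0.05, with a median of -0.39; TUA6 read 13.16 and 12.94 in control and 12.67 and 12.52 in heat.

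Some growth regulators and receptors fell, and most genes of the auxin response were not called. Of 6 auxin response genes 1 fell (16.7%, near the 17.9% of all probe sets) and 0 rose. Of 5 gibberellin and brassinosteroid genes 3 fell (60%, against 17.9%). Of 8 RALF peptide genes 3 fell (37.5%, against 17.9%) and 5 were not called, with a median of -0.47. The RALF list was added after values were seen. WAG2, a kinase that acts on auxin transport, read 9.80 and 9.93 in control and 5.21 and 5.38 in heat, a change of -4.57 ± 0.38 log2 units (SE; adjusted p = 8.72e-05). HAT2, a homeodomain factor induced by auxin and the single call of its list, went from 9.02 and 8.75 to 6.21 and 6.19. GID1A and GID1B, receptors of gibberellin, fell by 1.33 and 1.70, the first losing its call without control replicate 2 or heat replicate 1, and GID1C stood at -0.31. BRH1, a RING protein responsive to brassinosteroid, went from 10.58 and 10.45 to 6.74 and 8.08, with heat arrays over 2-fold apart. PSY1R, a receptor of a growth peptide, fell by 2.26, and RALFL34, RALFL31 and RALFL33, peptides of the RALF family, fell by 1.82, 1.89 and 1.51.

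Pathogen defence genes, flavonoid genes and UDP-glycosyltransferases were mostly not called. Of 9 pathogen defence genes 2 fell (22.2%, near the 17.9% of all probe sets) and 0 rose. Of 6 flavonoid and anthocyanin genes 2 fell (33.3%, against 17.9%) and 0 rose, with a median of -1.04. Of 35 UDP-glycosyltransferases, which attach sugars to small molecules, 8 fell (22.9%, against 17.9% of all probe sets) and 3 rose (8.57%, against 10.5%). The count of falls was 3 without control replicate 2 or heat replicate 2 and 4 without heat replicate 1. The risers were UGT71C2 at 3.25, UGT74F1 at 2.60 and UGT73C1, which rose from background by at least 3.89-fold.

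Of 5 genes of endoplasmic reticulum bodies 3 fell (1 without control replicate 2 or heat replicate 1), and of 5 glucosinolate genes 3 fell (1 without control replicate 2 or heat replicate 2). In each of these lists 60% were called lower, against 17.9% of all probe sets. The list of endoplasmic reticulum bodies was added after values were seen. NAI2, a protein that builds the endoplasmic reticulum bodies of roots and seedlings, read 13.17 and 13.36 in control and 10.79 and 10.99 in heat, a change of -2.38 ± 0.25 log2 units (SE; adjusted p = 0.000272). PYK10, the beta-glucosidase stored in those bodies, went from 14.80 and 15.17 to 13.83 and 13.93, a fall of 1.10 that lost its call without control replicate 2 or heat replicate 1 and with median centring. GTR2 and GTR1, transporters of glucosinolates, fell by 2.66 and 2.34, the latter losing its call without control replicate 2 or heat replicate 2. UF3GT, which decorates anthocyanins, went from 10.26 and 9.81 to 4.97 and 6.53, a change of -4.28 that was -3.50 without heat replicate 1 and -5.06 without heat replicate 2. AT5MAT, another such enzyme, read 7.71 and 6.90 in control and was at background in heat, at least 9.91-fold lower. Of 11 cytochrome P450s 6 fell, 4 without control replicate 1, 3 without heat replicate 1 and 2 without control replicate 2 or heat replicate 2, with 3 when dim probe sets were not filtered. The 6 that fell made up 54.5%, against 17.9% of all probe sets. CYP71B23 read 5.68 and 8.67 in control and 4.19 and 2.98 in heat, with control arrays over 2-fold apart. It lost its call without control replicate 2 or heat replicate 2. Over the whole comparison 207 of the 2605 probe sets called lower had control arrays over 2-fold apart, 124 with control replicate 2 higher and 83 with control replicate 1 higher.

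Ribosomal proteins as a group lay slightly below the median of all probe sets. Of 111 cytosolic ribosomal proteins 11 fell (9.91%, below the 17.9% of all probe sets) and 0 rose. Their median was -0.65 against -0.22 for all probe sets, and 106 of the 111 lay below the median of all. Bright probe sets in general lay lower, with a median of -0.40 at control means of 10 to 12 and -0.58 at 12 to 14. The members' median was 11.88 and 11.87 in the control arrays and 11.42 and 11.15 in the heat arrays. With median centring 4 fell and the median was -0.51, and after quantile normalization 11 fell and it was -0.62. With no filter on dim probe sets 4 fell, and in a fit of the control and heat arrays alone 17 fell. Without control replicate 1 or heat replicate 1 the number that fell was 2, and without control replicate 2 or heat replicate 2 it was 1.

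Splicing factors, proton pumps and autophagy genes held few calls, and splicing factors and autophagy genes lay above the median of all probe sets. Of 14 splicing factors 0 were called by limma, 5 had an unadjusted p below 0.05, and the median was 0.24; 2 of the 14 lay below the median of all. Of 7 proton pump subunits 0 were called, 2 had an unadjusted p below 0.05, and the median was -0.39. Autophagy genes had a median of 0.49 over 11 members (0.095 without heat replicate 2), 2 of them below the median of all, and the single call, APG8A at 1.04, was lost without control replicate 1, control replicate 2 or heat replicate 2. Among 35 genes of the ubiquitin system 6 fell (17.1%, near the 17.9% of all probe sets). In the same list 2 rose (5.71%, against 10.5%), and the median was -0.02. PUB19, a U-box ligase, rose by 2.47, and ATL8, a RING protein, went from 7.63 and 7.23 to 2.29 and 3.63, at least 10.8-fold lower (adjusted p = 0.00018).

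Several bright transcripts were not called, and others were. ICL, the isocitrate lyase of the glyoxylate cycle, read 14.49 and 14.37 in control and 14.21 and 14.10 in heat. AT1G09310 read 15.72 and 15.75 in control and 15.09 and 15.06 in heat, an adjusted p of 0.0406 with a change of -0.66 that was under 2-fold. petB, a plastid cytochrome gene, read 14.30 and 14.42 in control and 14.34 and 14.37 in heat. SAMDC, an enzyme of polyamine synthesis, was called lower at 13.41 and 13.29 in control and 12.15 and 12.07 in heat. AT5G54940, a translation initiation factor of the eIF1 type, was called higher from 11.34 and 11.40 to 14.37 and 14.52, a change of 3.07 ± 0.22 log2 units (SE; adjusted p = 3.86e-05).

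**Figure D5:**
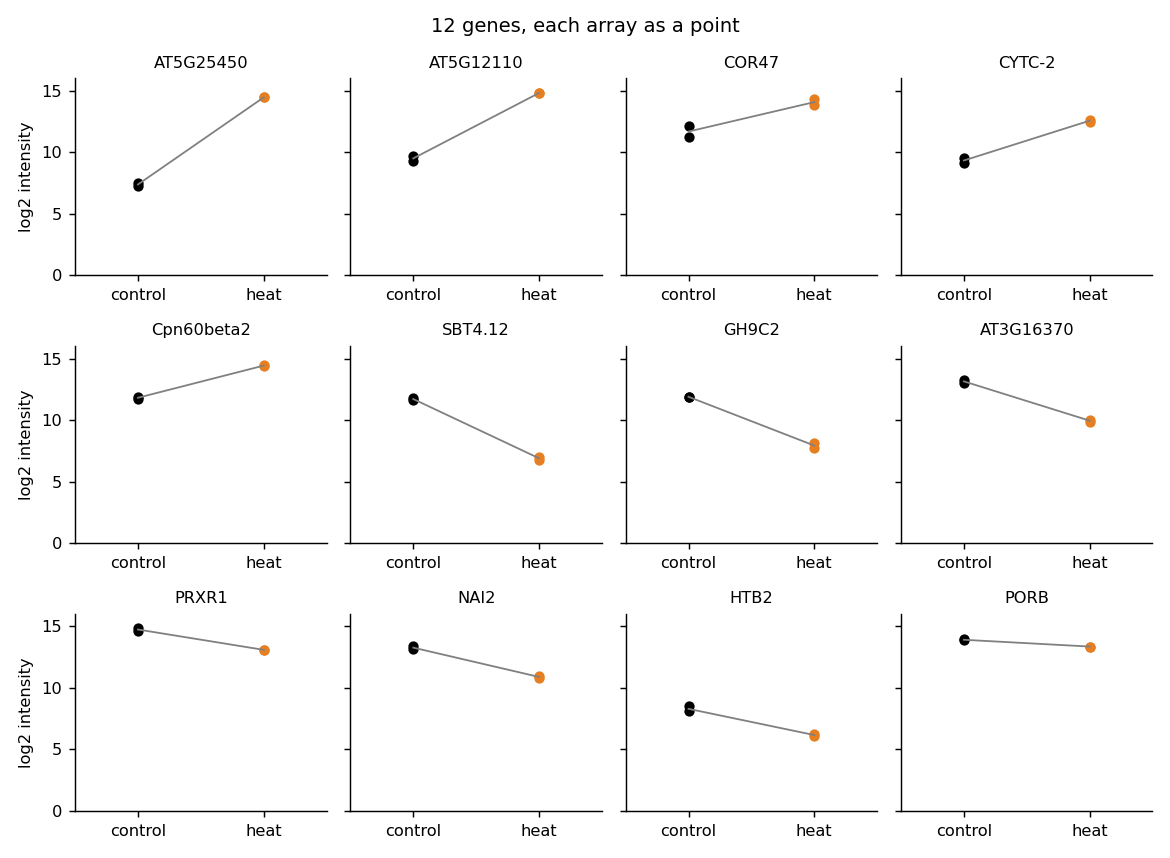
Log2 intensity of 12 genes in each control (black) and heat (orange) array, with a line between group means. The first 5 genes rose and the next 6 fell with no overlap between groups, and PORB, at 13.87 and 13.95 in control and 13.36 and 13.35 in heat, was not called.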

How the data were processed

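The deposited values are GCRMA intensity values on a linear scale, per the submitters' processing notes, which give no version. GCRMA is a method that estimates background from probe sequence, which leaves dim values uncertain; array medians over tested probe sets were 7.30 to 7.52 on the 4 arrays. Intensities give no absolute RNA amount and are compared within a probe set only. The log2 of each intensity was taken with no further normalization, and 64 array controls were left out. Means of the 4 groups were estimated over all 8 arrays in limma 3.58.1 (R 4.3.3, 4 residual degrees of freedom), and the contrast heat minus control was tested with Benjamini-Hochberg adjustment. Alternatives covered the filter, the scaling, the prior, the arrays fitted, a replicate block, the thresholds, cross-hybridising probe sets, the choice of probe set per gene and each array left out. Figures were drawn with matplotlib 3.10.9. The procedure was tested on simulated data.

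Names came from the platform table and a RefSeq table (TAIR10.1): 7823 tested probe sets match 1 gene, 332 several, and 6380 are unnamed here, so lists hold named genes only. A gene is represented by its brightest probe set. The comparison, the gene lists and their members were chosen with earlier results of these data known, and 12 lists (mitochondrial DNA on chromosome 2, GDSL, TRM, TBL, IQD, PRA1, RALF, tetraspanin, beta-glucosidase, serine carboxypeptidase-like, ER body, COR and LTI genes) and parts of others were added after values were seen. The genes given by name are the 20 highest and 20 lowest changes without overlap between groups, up to 5 called members per list and direction, the 2 brightest members of lists with no call, and bright genes (15 called in each direction, 10 not called). Other genes, among them all other members given as not called, were chosen after their values were seen. Promoter motifs were not analysed here.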

Additional observations from a re-analysis of the deposited data

How the results depend on the processing

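Counts of 1524 higher and 2605 lower probe sets stayed within 1.5 times of these values under the alternatives tried, except that 1728 were lower at an adjusted p below 0.01, and that 789 were higher and 795 lower when the change itself was tested against 2-fold with treat. The replicate block gave 1555 higher and 2720 lower. Replicate numbers were not taken as pairs: the correlation of replicate differences was 0.02 between control and heat, 0.06 between heat and heat then anoxia, and 0.19 to 0.30 between the other pairs of groups. When 1 array at a time was left out, 1247 to 1518 were higher, 1925 to 2674 were lower, and the median of all probe sets was -0.28 to -0.16. That median was 0.064 with no filter on dim probe sets, -0.084 with median centring and -0.094 after quantile normalization. No probe set was called in opposite directions by any alternative. Of 242 named probe sets that were called, 181 stayed called without each array in turn, 223 under both scalings and 135 under every alternative; the other 107 were lost with treat. Of 24 list counts of at least 5, 18 moved by over 1.5 times with treat, and 4 stayed within 1.5 times under every alternative. With background at log2 5 or 6, 511 or 690 probe sets were at background in both controls and called higher. Signal over background limits transcripts below log2 4 to bounds, and 2 arrays per group limit all others.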
